A study of Rattus norvegicus with 14 samples.

Results

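Of 11 malignant peritoneal mesotheliomas of rats, 2 tumors, amosite replicate 1 and MWCNT D replicate 2, carried very high signals for 10 genes of pancreatic acinar cells, and these 10 genes are described here across all 14 arrays of the series. The 10 genes are Cpb1, Cela2a, Cela3b, Ctrc, Prss2, Clps, Pnliprp1, Pnliprp2, Sycn and Cuzd1, out of 14217 genes that the annotated probe sets of the array name singly. They were chosen by their signals in those 2 tumors, set against the other 12 arrays, so the separation of the 2 tumors from the other 12 arrays is given below as a description, without a test. Each of the 10 genes was read by 1 probe set.

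RNA of 11 tumors and 3 control peritoneal tissues was hybridized to Affymetrix GeneChip arrays of the rat genome, with 1 array per male Wistar rat. The tumors arose after a single injection of fibers in artificial lung medium into the peritoneal cavity. The fibers were multi-walled carbon nanotubes (MWCNT) of the kinds D (3 tumors), C (3 tumors) and B (2 tumors) or amosite asbestos (3 tumors). The 3 controls are labelled as sham-treated peritoneal tissue, while the methods of the study call the control animals untreated. Amosite replicate 1 is labelled an epithelioid mesothelioma and MWCNT D replicate 2 a sarcomatoid one. The other 9 tumors are 4 sarcomatoid, 3 biphasic and 2 epithelioid mesotheliomas. All groups share the strain and the sex, and only the tumors share the injected medium by their labels.

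Acinar cells make up most of the exocrine pancreas. They store digestive enzymes and inactive enzyme precursors in zymogen granules and release them into the duct, where colipase, lipases, proteases and amylase pass on to the gut. The same organ holds islets, whose endocrine cells make insulin, glucagon, somatostatin and amylin. In bulk tissue a lower signal of such genes can come from fewer cells of a type or from less RNA per cell, and the arrays cannot tell these apart.

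The 250 bases upstream of the gene start are printed for 3 of the 10 genes, those where these bases held the E-box discussed next. E-box motifs are the sites bound by basic helix-loop-helix factors, to which the acinar factor Ptf1a belongs. The sequences are RefSeq promoter windows of the GRCr8 assembly, read 5′ to 3′ on the strand of the gene, and capitals mark the E-box CACCTG or its reverse complement CAGGTG.
Prss2 (chr4:71244714-71244963, plus strand): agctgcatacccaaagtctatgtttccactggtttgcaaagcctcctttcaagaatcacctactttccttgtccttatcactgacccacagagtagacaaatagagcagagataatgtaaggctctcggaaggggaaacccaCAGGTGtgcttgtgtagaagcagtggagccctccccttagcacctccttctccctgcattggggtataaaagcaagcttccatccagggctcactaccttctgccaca
Cpb1 (chr2:104714663-104714912, minus strand): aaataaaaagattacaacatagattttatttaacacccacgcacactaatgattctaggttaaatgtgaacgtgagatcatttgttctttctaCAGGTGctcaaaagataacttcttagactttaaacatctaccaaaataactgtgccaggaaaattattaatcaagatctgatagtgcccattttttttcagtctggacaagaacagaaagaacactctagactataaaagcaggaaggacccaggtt
Cela3b (chr5:154920334-154920583, minus strand): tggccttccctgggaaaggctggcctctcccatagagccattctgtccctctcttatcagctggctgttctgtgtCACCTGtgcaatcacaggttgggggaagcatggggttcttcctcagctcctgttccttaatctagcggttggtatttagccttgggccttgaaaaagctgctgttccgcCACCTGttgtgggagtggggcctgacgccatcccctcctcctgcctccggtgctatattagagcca
Windows of 300 bases, with 250 before and 50 after the gene start, were at hand for 7 of the 10 genes (Cpb1, Cela3b, Ctrc, Prss2, Pnliprp1, Pnliprp2 and Cuzd1). The E-box CACCTG stood on either strand in 5 of these 7 windows, those of Cpb1, Cela3b, Ctrc, Prss2 and Pnliprp1, and in 18.8% of all 33469 windows. It began 108 bases before the start of Prss2 and 157 bases before that of Cpb1, and at 175 and 66 bases before that of Cela3b. In Ctrc and Pnliprp1 it lay after the gene start, at positions 3 and 7, so only 3 of the 7 held it upstream. The 18.8% is for full windows. No share over all windows is given for the 250 upstream bases alone, so 3 of 7 is no result about these genes. The letters TATAAA, which spell a TATA box, occurred in 3 of the 7 windows (Cpb1, Ctrc and Prss2) and in 14.2% of all windows, and TTTCCC, the other part of the site bound by the Ptf1a complex, in 3 of the 7 and in 25.1% of all. None of the motifs overlapped another in these windows. The matches are a description of letters and show no binding.

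Signals are given as log2(signal + 1), called log2 signal from here on, where a difference of 1 is a 2-fold change. Amosite replicate 1 ranged from 13.21 to 17.03 over the 10 genes and MWCNT D replicate 2 from 12.02 to 16.15, against 2.73 to 10.37 in the remaining 9 tumors and 0.02 to 6.27 in the 3 controls. For each gene, the separation was taken as the lower of the 2 tumors minus the highest of the other 12 arrays. It was above 0 for 10 of 10 genes, with a median of 8.18 and a range from 2.73 for Cela3b to 9.72 for Cela2a. Of all 14217 genes, 560 (3.94%) were higher in both tumors than in every other array, and the median separation over all genes was -1.03. These are the values that chose the genes.

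**Figure D1:**
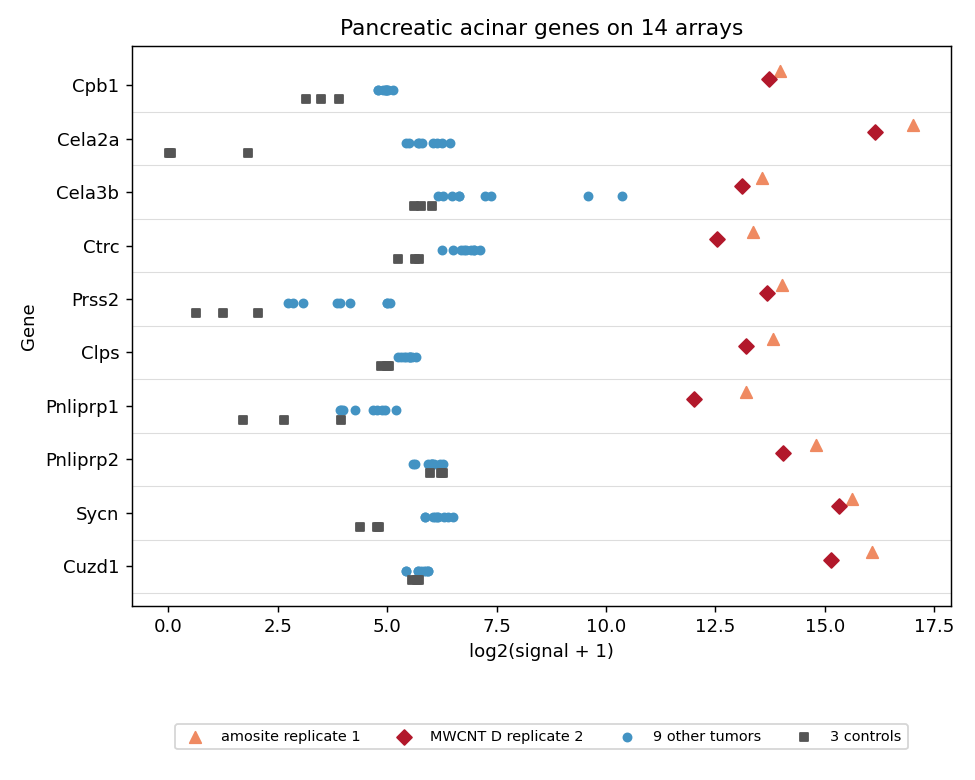
Log2(signal + 1) of the 10 pancreatic acinar genes (horizontal axis) on each of the 14 arrays, with 1 row per gene and 1 point per array. Amosite replicate 1 and MWCNT D replicate 2 lie at 12.02 or above in every row, and only Cela3b has points of other tumors between 9 and 11.

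The proteases were read by 5 probe sets. Cpb1, encoding carboxypeptidase B, which removes basic residues from the end of peptides, had a log2 signal of 13.98 in amosite replicate 1 and 13.73 in MWCNT D replicate 2. The 9 other tumors ranged from 4.78 to 5.14 with a median of 4.98, and the controls had 3.91, 3.16 and 3.49. Thus Cpb1 fell into 3 levels that did not overlap, with the 2 tumors far above the other 9 and those above the controls. All 9 were above all controls in 37.2% of all genes. The 2 lower levels of Cpb1 lay around or below 5. With log2 signals below 5 raised to 5, the 9 other tumors differed from the controls by only 0.02.

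Cela2a, encoding an elastase-like chymotrypsin family protease, reached 17.03 in amosite replicate 1 and 16.15 in MWCNT D replicate 2. It lay between 5.42 and 6.43 in the 9 other tumors (median 5.80) and at 0.02, 0.06 and 1.81 in the controls. All 3 controls were close to the bottom of the scale, which corresponds to linear signals of 0.0111 to 2.52, so the log2 difference between the 9 other tumors and the controls rests on values near 0. In linear signal, Cela2a was 133383 in amosite replicate 1 and 72896 in MWCNT D replicate 2, against 41.9 to 85.4 in the 9 other tumors.

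Cela3b, encoding another elastase-like protease, had 13.56 in amosite replicate 1 and 13.10 in MWCNT D replicate 2. The 9 other tumors ranged from 6.17 to 10.37 (median 6.64) and the controls were at 6.04, 5.62 and 5.78. This gene was the exception among the 10, because 2 further tumors stood above the rest. MWCNT D replicate 1 had 10.37 and amosite replicate 2 had 9.58, while the remaining 7 tumors lay between 6.17 and 7.38. Both came from the same inducers as the 2 tumors with the highest signals. The remaining tumors of these inducers, MWCNT D replicate 3 at 6.63 and amosite replicate 3 at 6.28, were among the 7 lower ones. None of the other 9 acinar genes had those 2 tumors more than 1 log2 unit above the other 7 tumors and the controls.

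Ctrc, encoding chymotrypsin C, which cleaves trypsinogens, had 13.35 in amosite replicate 1 and 12.54 in MWCNT D replicate 2. The 9 other tumors were between 6.25 and 7.12 (median 6.81) and the controls at 5.26, 5.64 and 5.73. Prss2, encoding an anionic trypsinogen, had 14.03 in amosite replicate 1 and 13.67 in MWCNT D replicate 2, against 2.73 to 5.07 (median 3.93) in the remaining 9 tumors and 0.64, 1.25 and 2.05 in the controls. Both genes showed the same order of 3 non-overlapping levels as Cpb1. Prss2 spread more among the 9 other tumors (SD 0.93) than Ctrc (SD 0.27), at a level where the array signal is low. Trypsinogens form a gene family, and whether the probe set of Prss2 also read transcripts of Prss1 or Prss3b was not tested.

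Of the lipid-digesting proteins, Clps encodes colipase, the cofactor that anchors pancreatic lipase to fat droplets. Clps was at 13.81 in amosite replicate 1 and 13.20 in MWCNT D replicate 2. It was between 5.26 and 5.66 (median 5.50) in the 9 other tumors, and at 4.87, 5.005 and 5.04 in the controls. The 9 other tumors formed a narrow band (SD 0.13), just above the controls and not overlapping them.

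Pnliprp1 encodes a pancreatic lipase-related protein with little lipase activity. Its log2 signal was 13.21 in amosite replicate 1 and 12.02 in MWCNT D replicate 2, against 3.93 to 5.20 (median 4.67) in the remaining 9 tumors and 2.64, 1.70 and 3.94 in the controls. The lowest of the 9 tumors lay within the range of the controls, and the gap between the 2 high tumors was the widest of the 10 genes, at 1.19. Pnliprp2 encodes a second related protein, which hydrolyses galactolipids and other lipids. It had 14.81 in amosite replicate 1 and 14.04 in MWCNT D replicate 2, 5.60 to 6.27 (median 6.02) in the 9 other tumors and 6.24, 5.99 and 6.27 in the controls. Here the range of the 9 other tumors overlapped that of the controls and reached lower. In the RefSeq gene order Pnlip, Pnliprp1 and Pnliprp2 are neighbours on chromosome 1, and Cela2a and Ctrc are neighbours on chromosome 5.

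Sycn and Cuzd1 encode proteins of the zymogen granule. Sycn, encoding syncollin, a protein of the granule membrane, had 15.63 in amosite replicate 1 and 15.32 in MWCNT D replicate 2. The 9 other tumors were between 5.87 and 6.50 (median 6.15), above the controls at 4.80, 4.37 and 4.78. Cuzd1, encoding a granule membrane protein with CUB and zona pellucida domains, had 16.07 in amosite replicate 1 and 15.16 in MWCNT D replicate 2. It was between 5.43 and 5.94 (median 5.78) in the 9 other tumors and at 5.73, 5.57 and 5.68 in the controls, which therefore lay inside the range of the tumors.

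Across the 10 genes, amosite replicate 1 was higher than MWCNT D replicate 2 in 10 of 10, by a median of 0.69 and by 0.25 (Cpb1) to 1.19 (Pnliprp1). Over all genes amosite replicate 1 was the higher in 52.6%, with a median difference of 0.05. These are single arrays, so the difference has no replicate check. The 10 genes held 1.97% of the summed signal of all probe sets in amosite replicate 1 and 1.25% in MWCNT D replicate 2, against 0.00296% to 0.0111% in the remaining 9 tumors and 0.00123% to 0.00148% in the controls. Together with the other acinar genes listed below, the share was 6.04% in amosite replicate 1 and 4.54% in MWCNT D replicate 2, with 0.0128% to 0.0383% in the 9 other tumors and 0.0162% to 0.0223% in the controls.

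Among the 9 other tumors, the 10 genes did not vary together. Over the 45 pairs of genes, Pearson's r across these 9 arrays had a median of 0.027 and ranged from -0.549 to 0.769. Over the 12 arrays that include the controls the median r was 0.613, and the controls were the lowest arrays for most of the genes. All values of these 12 arrays share the normalization. SDs over the 9 other tumors stayed under 1 for 9 of the 10 genes, and the one above, 1.52, was that of Cela3b.

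A list of further acinar genes was then read in the same way. Of its 29 measured genes, 18 were higher in both tumors than in the other 12 arrays, 14 by more than 1 and 12 by more than 3. Over all genes these shares were 3.94%, 0.408% and 0.225%. The list was chosen with earlier results of these data known, so its counts are a description and no independent evidence. The members of the list that stood apart most were Ctrb1, encoding chymotrypsinogen B, at 19.10 in amosite replicate 1 and 18.89 in MWCNT D replicate 2 against 7.10 to 7.80 in the remaining 9 tumors, and the trypsinogen Prss1, at 15.72 in amosite replicate 1 and 15.18 in MWCNT D replicate 2 against 5.30 to 6.23. Pla2g1b, encoding the pancreatic phospholipase A2, was at 13.02 in amosite replicate 1 and 12.66 in MWCNT D replicate 2 against at most 2.87 in the other tumors and 3.86 in controls. Amylase (Amy2a3), the bile salt-dependent lipase Cel, pancreatic lipase (Pnlip), chymotrypsin-like Ctrl, carboxypeptidase A1 (Cpa1) and the granule glycoprotein Gp2 also exceeded every other array in both tumors.

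Not every acinar gene followed. Spink1, the trypsin inhibitor made by acinar cells, was at 11.53 in amosite replicate 1 but at 5.998 in MWCNT D replicate 2, which lay below the controls (6.40 to 6.93). Of its 3 probe sets, only that with the highest mean signal was read. The Spink1-like gene Spink1l was more than 3 above every other array in both tumors. Cela1 followed less clearly, at 11.90 in amosite replicate 1 and 10.33 in MWCNT D replicate 2. Both exceeded every other array, but the separation was only 0.90, as 1 of the other tumors reached 9.43. Reg3b and Reg3g, secreted lectins induced in inflamed pancreas and gut, were at 9.76 and 10.66 in amosite replicate 1 and at 7.32 and 7.03 in MWCNT D replicate 2, below the highest of the other tumors at 10.21 and 11.21. Amy1, the salivary-type amylase, was at 3.57 in amosite replicate 1 and 2.77 in MWCNT D replicate 2, within the 9 other tumors (2.25 to 4.80), and the controls had 10.502 to 11.46. Low Amy1 was thus shared by all 11 tumors. Of the transcription factors of acinar cells, 0 of 10 measured genes were above the other 12 arrays in both tumors, a count near the 3.94% of all genes. Ptf1a, which drives acinar gene expression, was at 4.86 in amosite replicate 1 and 3.71 in MWCNT D replicate 2 against 3.66 to 4.68 in the 9 other tumors.

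**Figure D2:**
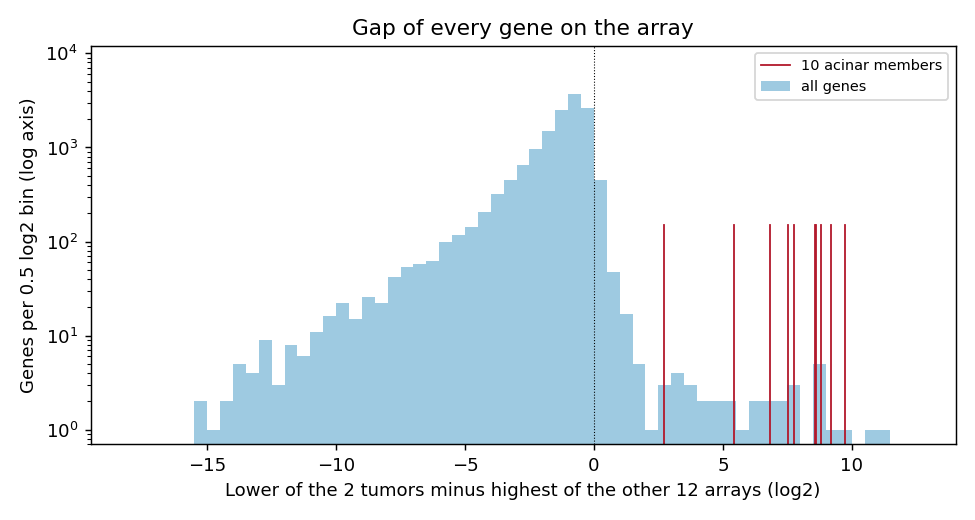
Number of genes (vertical log axis, bins of 0.5) by separation, the lower of the 2 tumors minus the highest of the other 12 arrays in log2 signal (horizontal axis). Red lines mark the 10 acinar genes, which lie between 2.73 and 9.72, in the thin right tail of a distribution with its median at -1.03.

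Over all 14217 genes, 58 (0.408%) were higher in both tumors by more than 1 and 32 (0.225%) by more than 3. Of these 32 genes, 9 were among the 10 acinar genes and 12 on the list of further acinar genes. Cela3b, with its separation of 2.73, was the one of the 10 that fell below 3, and 32 genes had a larger separation than Cela3b. The other 11 genes were Aldh1b1, Astn1, Col9a3, Gcg, Il27ra, Ins2, Prss3b, Prss3bl1, Rab11fip4, Rnase6 and Spink1l. They include 2 islet hormones (Ins2 and Gcg) and 2 genes of the trypsinogen family (Prss3b and Prss3bl1). In the opposite direction, 9 genes were lower in both tumors than in every other array by more than 1 and 0 by more than 3. The widest separation of this kind among genes with a log2 signal of at least 8 in all other arrays was that of Serpine2, a serine protease inhibitor, at 9.19 in amosite replicate 1 and 8.29 in MWCNT D replicate 2 against 11.05 to 13.05 in the remaining 9 tumors and 10.74 to 10.84 in the controls.

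By the separation, with a log2 signal of at least 8 in both tumors, the 10 genes outside the set that were most like it were Ctrb1 (11.09), Prss3b (10.61), Prss1 (8.95), Pla2g1b (8.80), Amy2a3 (7.89), Pnlip (7.20), Aldh1b1 (7.19), Prss3bl1 (6.72), Cel (6.08) and Ctrl (6.06). The measure uses all 14 arrays. Of these, 9 encode digestive enzymes of the pancreas or trypsinogen-family proteins, and Aldh1b1 encodes a mitochondrial aldehyde dehydrogenase. Aldh1b1 was at 12.66 in amosite replicate 1 and 12.97 in MWCNT D replicate 2, against 4.82 to 5.48 in the remaining 9 tumors and 3.88 to 4.15 in the controls. A further 10216 probe sets had no single gene name, and 2 of them had a separation above 3.

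Some islet genes were also high on these 2 arrays. Of 18 measured islet genes, 4 were higher in both tumors than in all other arrays (Ins1, Ins2, Gcg and Scg2), as were 3.94% of all genes, and 12 did not exceed the other arrays by more than 1 in either tumor. Ins2, encoding insulin, was at 10.77 in amosite replicate 1 and 12.08 in MWCNT D replicate 2, against at most 4.69 in the 9 other tumors and 4.95 in the controls. Gcg, encoding glucagon, was at 7.61 in amosite replicate 1 and 10.05 in MWCNT D replicate 2, against at most 4.09 in the other 9 tumors. Iapp, encoding the beta-cell peptide amylin, was at 5.89 in amosite replicate 1, within the controls (5.67 to 5.90), and at 13.77 in MWCNT D replicate 2. Sst, encoding somatostatin, was at 6.97 in amosite replicate 1, within the range of the other tumors (6.86 to 7.28), and at 9.94 in MWCNT D replicate 2.

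Of the islet genes, 6 exceeded the other 12 arrays by more than 1 in at least 1 of the 2 tumors, and these were Ins1, Ins2, Gcg, Sst, Iapp and Scg2. Over all genes, 2.41% exceeded them by that much in amosite replicate 1 and 3.62% in MWCNT D replicate 2. All 6 were lower in amosite replicate 1 than in MWCNT D replicate 2, with a median difference of -2.71 and a range from -7.88 to -1.31. All 6 met the rule in MWCNT D replicate 2 and only 3 in amosite replicate 1, so the rule itself favours this direction. Over all 18 measured islet genes the median difference was -0.50. Among the 18 further acinar genes that met the same rule, 14 were higher in amosite replicate 1 and 4 in MWCNT D replicate 2, with a median difference of 0.59. Islet transcription factors and granule proteins such as Pdx1, Nkx6-1, Neurod1, Chga and Chgb did not exceed the other arrays in either tumor.

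**Figure D3:**
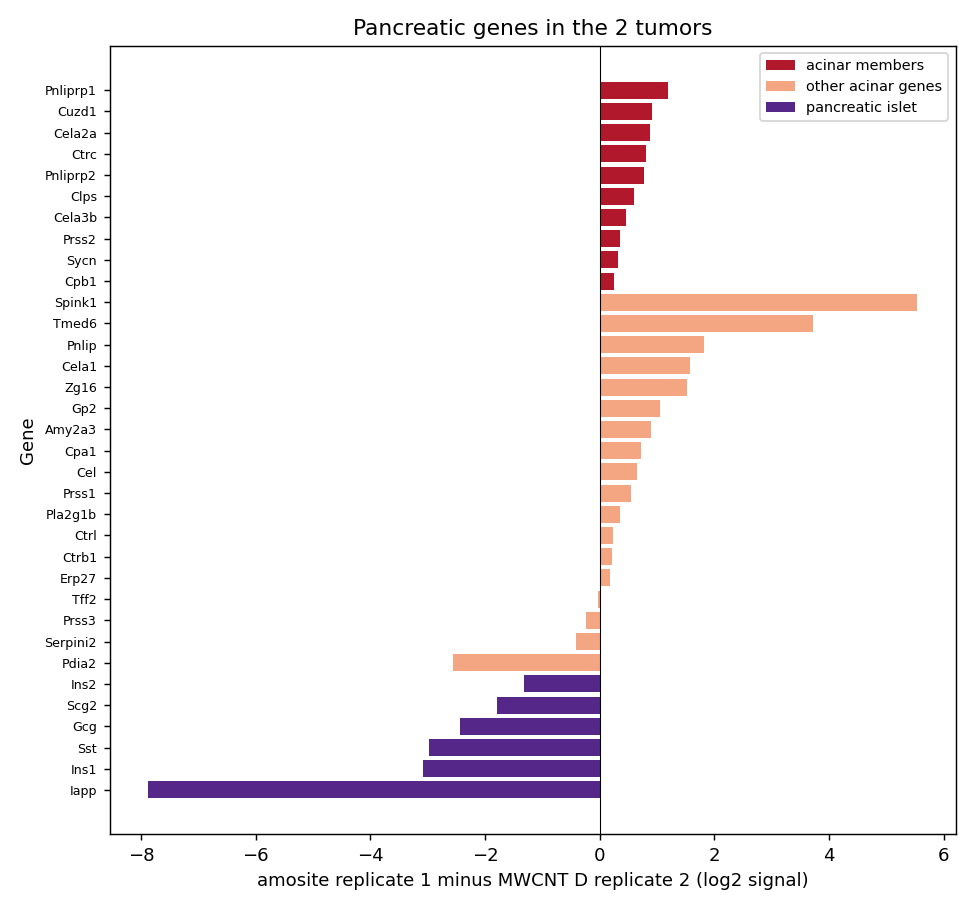
Log2 signal in amosite replicate 1 minus that in MWCNT D replicate 2 (horizontal axis) for the 10 acinar genes, the 18 further acinar genes and the 6 islet genes that exceeded the other 12 arrays by more than 1 in at least 1 of the 2 tumors. All 10 red bars point to amosite replicate 1, and all 6 islet bars to MWCNT D replicate 2, where the longest is Iapp at -7.88. The genes shown were chosen by their signals in these 2 tumors, so the directions are a description.

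Markers of other cells differed between the 2 tumors. The mean log2 signal of 12 mesothelial genes was 11.60 in amosite replicate 1 and 7.60 in MWCNT D replicate 2, against 8.76 to 11.53 in the remaining 9 tumors and 4.71 to 6.65 in the controls. Msln, encoding mesothelin, was at 12.83 in amosite replicate 1 and 7.92 in MWCNT D replicate 2, where the 9 other tumors had at least 11.11. Wt1, a transcription factor of mesothelial cells, was at 13.39 in amosite replicate 1 and 7.08 in MWCNT D replicate 2, and at least 10.73 in the 9 other tumors. Thus MWCNT D replicate 2, labelled as a sarcomatoid mesothelioma, had a lower mesothelial mean than every other tumor, the 4 other sarcomatoid tumors included. It lay above the controls for Msln and Wt1, but not for every gene of the list. Upk1b (6.33), Krt19 (5.20), Lrrn4 (7.75) and Calb2 (7.31) lay within the range of the controls. Cav1, at 10.86, lay below the controls (11.25 to 11.61), and the remaining genes of the list lay above them.

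MWCNT D replicate 2 also stood apart by lymphocyte genes. Its mean over 9 B and plasma cell genes was 12.20, against 5.34 in amosite replicate 1, 5.42 to 6.41 in the 9 other tumors and 4.80 to 5.07 in the controls. All 9 had their highest value of the 14 arrays in MWCNT D replicate 2, as did 15.6% of all genes. Cr2, a complement receptor of B cells, was at 14.52 there and at most 5.67 in the 9 other tumors, and the B-cell receptor subunit Cd79b was at 13.12 against at most 3.79. The mean over 11 T cell genes was 10.66 in MWCNT D replicate 2, against 5.70 in amosite replicate 1, 5.55 to 6.98 in the remaining tumors and 4.88 to 5.19 in the controls. Of these, 10 were highest in MWCNT D replicate 2. The part of these cells in the acinar signal was not tested.

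Duct genes, adipocyte genes and macrophage genes gave means within the range of the 9 other tumors in both tumors. The 9 duct genes averaged 9.999 in amosite replicate 1 and 6.46 in MWCNT D replicate 2, against 6.03 to 10.41 in the remaining 9 tumors and 5.22 to 5.90 in the controls. This list shares Krt19 with the mesothelial list. The adipocyte mean was 6.59 in amosite replicate 1 and 9.84 in MWCNT D replicate 2 (5.89 to 10.31 in the 9 other tumors, 8.46 to 9.60 in controls), and the macrophage mean 9.68 in amosite replicate 1 and 11.52 in MWCNT D replicate 2 (9.28 to 12.17 in the 9 other tumors, 7.80 to 8.88 in controls). The fibroblast mean was 11.51 in amosite replicate 1, within the 9 other tumors (11.002 to 12.38), and 10.58 in MWCNT D replicate 2, below them and at the lowest control (10.58 to 11.09). For skeletal muscle the means were 5.14 in amosite replicate 1 and 4.83 in MWCNT D replicate 2, against 4.86 to 5.23 in the remaining 9 tumors and 13.999 to 14.08 in the controls.

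For liver, intestine, stomach, salivary gland and mast cells, 0 genes were higher in both tumors than in every other array, where the share over all genes was 3.94%. Among endothelial genes 1 of 9 was higher (Kdr, by 0.91) and among genes of the general secretory pathway 1 of 24 (Ero1b, by 0.59). With lists of this size, these counts are near that share and say little about the lists. The part that any of these tissues had in the acinar signal was not tested.

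**Figure D4:**
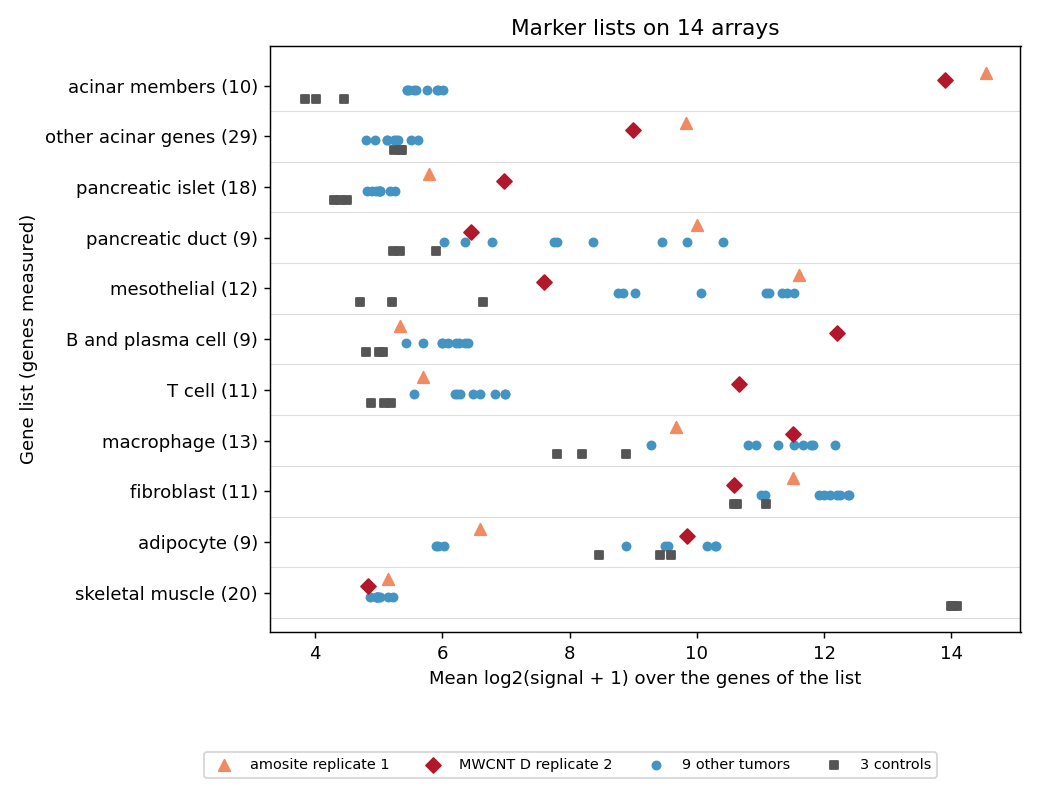
Mean log2(signal + 1) over the genes of each list (horizontal axis) on the 14 arrays, with the number of measured genes in brackets. The acinar rows separate both tumors from all other arrays, whereas the B and plasma cell row and the T cell row separate MWCNT D replicate 2 alone, at 12.20 and 10.66.

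The 2 arrays differed from the other tumors in some measures of the whole array. The actin probe sets gave a difference of 3′ minus 5′ end, a sign of RNA integrity, of 0.60 in amosite replicate 1 and 0.30 in MWCNT D replicate 2, against 0.32 to 0.56 in the remaining 9 tumors and -1.24 to -0.65 in the controls. The median signal of all probe sets was 154 in amosite replicate 1 and 135 in MWCNT D replicate 2, against 129 to 146 in the remaining 9 tumors and 96.9 to 104 in the controls. The summed signal was 18293800 in amosite replicate 1 and 17771600 in MWCNT D replicate 2, above the 15804600 to 16866600 of the 9 other tumors and below the 21671400 to 21894100 of the controls. Over all probe sets, the median correlation with the tumors was 0.864 for amosite replicate 1 and 0.857 for MWCNT D replicate 2, below the 0.903 to 0.938 of the 9 other tumors. The 2 arrays correlated with each other at 0.823, so they were not copies of each other, and no 2 arrays of the series exceeded 0.975. The controls differed from all tumors in median signal, summed signal and the actin measure. The part of any of these in the differences of the acinar genes was not tested.

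The labelled comparisons were then made with limma over all 31042 probe sets, and a gene was called where its adjusted p fell under 0.05 at more than a 2-fold change. In the 11 tumors against the 3 controls, 1 of the 10 acinar genes was called, where 24.5% of all probe sets were called higher. This was Cela2a, with a log2 difference of 7.21 ± 2.39 (SE, n = 11 and 3, limma adjusted p = 0.02). For the other 9 genes the differences were 1.34 (Pnliprp2) to 4.45 (Prss2), with standard errors from 1.38 to 2.25 and limma adjusted p from 0.11 to 0.56. The median difference over the 10 genes was 2.87, against 0.34 over all probe sets.

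By inducer, 0 of the 10 genes were called for MWCNT B (20.8% of all probe sets called higher) and 0 for MWCNT C (21.9%), with 0 genes at an unadjusted p below 0.05 in either. These fits share 1 spread with the 2 tumors, and with only the groups compared in the fit, 6 genes were called for MWCNT B and 6 for MWCNT C. The share over all probe sets is not given for the fits with only the groups compared, so these counts are no result about the 10 genes. Cela2a alone was called for MWCNT D, with 8.39 ± 3.11 (SE, n = 3 and 3, limma adjusted p = 0.048), beside 22.4% of all probe sets. Cela2a was also the only gene called for amosite, with 8.97 ± 3.11 (SE, n = 3 and 3, limma adjusted p = 0.037), beside 22.3%. The call was lost in 16 of 24 alternatives for MWCNT D and in 10 of 24 for amosite. Both groups hold 1 of the 2 tumors by whose signals the genes were chosen, so these p-values are no independent evidence. Cela3b had 4.23 for MWCNT D (limma adjusted p = 0.066) and 3.99 for amosite (limma adjusted p = 0.081). By tumor type, Cela2a alone was called in the sarcomatoid (7.58, limma adjusted p = 0.034, 23.3% of all called higher) and the epithelioid tumors (8.79, limma adjusted p = 0.031, 24.6%), and 0 genes in the biphasic tumors (24%), where 0 had an unadjusted p below 0.05. The sarcomatoid group holds MWCNT D replicate 2 and the epithelioid group amosite replicate 1, so the same limit applies to their p-values and to that of all 11 tumors.

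The calls of Cela2a were lost when low signals, among them its 3 control values near 0, were raised to a floor. The call was also lost for MWCNT D without MWCNT D replicate 2 and for amosite without amosite replicate 1. The part of the control values alone in these losses was not tested. With log2 signals below 5 raised to 5, 0 of the 10 genes were called in the 11 tumors against the controls (19.3% of all probe sets higher), with 0 at an unadjusted p below 0.05.

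Without the 2 tumors, the 9 other tumors differed from the controls in 6 of the 10 genes, all higher, where 25.3% of all probe sets were called higher. Sycn was higher by 1.504 ± 0.16 (SE, n = 9 and 3, limma adjusted p = 6.4e-06), Ctrc by 1.23 ± 0.18 and Cpb1 by 1.43 ± 0.15. Cela2a was higher by 5.26 ± 0.34, Prss2 by 2.65 ± 0.54 and Pnliprp1 by 1.75 ± 0.41. The limma adjusted p of these 6 genes lay at or below 0.0028. Clps was higher by 0.49, under the fold change of 2, and did not pass. Pnliprp2 had a difference of -0.19 (limma adjusted p = 0.3), Cuzd1 of 0.08 (limma adjusted p = 0.63) and Cela3b of 1.61 (limma adjusted p = 0.11). In 7 of the 10 genes all 9 tumors were above all 3 controls, as in 37.2% of all genes, and in the other 3 the groups overlapped (Pnliprp1, Pnliprp2 and Cuzd1).

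These smaller differences were then fitted with a floor and with centring, both added after the values had been seen. With the floor at 5, 2 of the 6 calls remained, those of Ctrc (1.23) and Sycn (1.15), beside 20% of all probe sets called higher. After median centring of every array, 4 genes were called, Cela2a, Prss2, Pnliprp1 and Sycn (1.07), beside 16.6% of all probe sets. Sycn was the only gene called in all 3 fits. Centring moved the median of all probe sets to -0.10, against 0.33 without it.

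**Figure D5:**
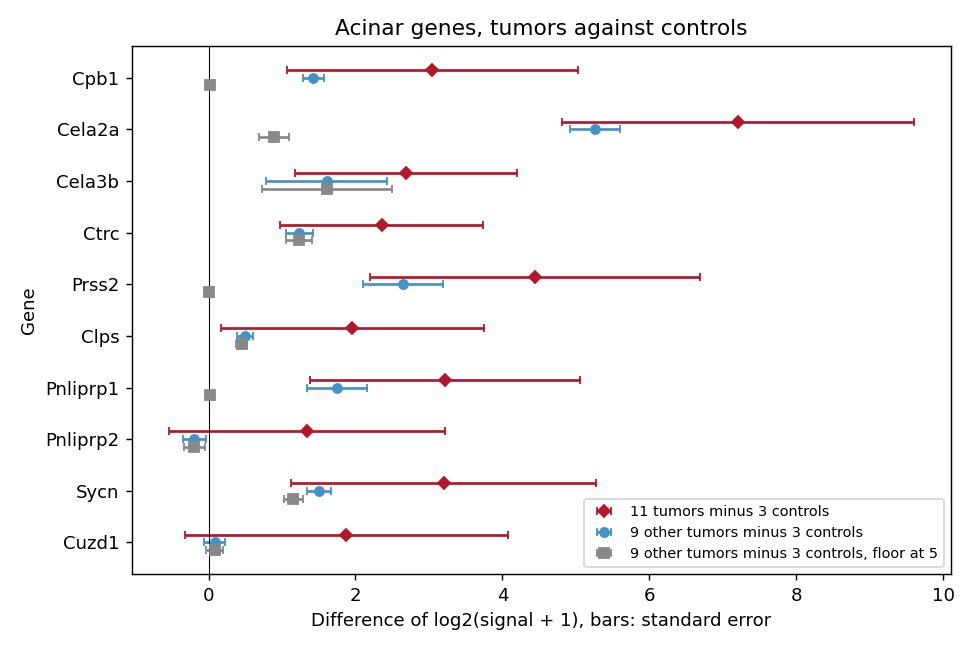
Log2 difference of tumors minus controls for each acinar gene (points) with its standard error (bars), for all 11 tumors, for the 9 other tumors, and for the 9 other tumors with log2 signals below 5 raised to 5. The bars of the 11-tumor fit are wide, up to 2.39 for Cela2a, and the floor brings Cpb1, Prss2 and Pnliprp1 to differences of at most 0.02.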

How the data were processed

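RNA of 11 rat tumors and 3 control peritoneal tissues, each labelled as a separate biological replicate, had been hybridized to 1 array each. The authors scanned the arrays and summarized probes to linear signal intensity per probe set with PLIER in the Transcriptome Analysis Console, and deposited these values as 1 table. Genome build and annotation version are not given in the sources used here. From the deposited intensity values, 57 Affymetrix control probe sets were removed, leaving 31042, and log2(signal + 1) was taken. Of these, 20826 had 1 gene symbol (20758 updated through RefSeq gene IDs, 68 kept as annotated), 436 several and 9780 none. Where a gene had several probe sets, the one with the largest average log2 signal was taken.

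Tumors and controls were compared with lmFit and eBayes of limma 3.58.1 in R 4.3.3 (eBayes over all probe sets, Benjamini-Hochberg adjustment). Inducer groups and tumor types were each fitted over all 14 arrays, so they share 1 estimate of the spread. In simulated data, 143 of 200 probe sets changed by 1.5 in the 11 tumors were recovered, and 98 of 200 in amosite. These were drawn at random and changed equally in every array of the group. The 10 acinar genes were high in 2 tumors, so this recovery does not measure how often a change in them would be called. Genes outside the set were named by rule, as the 10 with the largest separation among those with a log2 signal of at least 8 in both tumors. Single genes of the lists of acinar, islet and other cell markers were named after their values were seen. The 10 genes, the lists and the 2 tumors were chosen with earlier results of these data known. Alternatives were quantile normalization, median centring, a pseudocount of 16, a floor at 5, a filter at a mean of 6, a stricter adjusted p of 0.001, a replicate block, and leaving out arrays. The number of arrays limits the precision.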

Additional observations from a re-analysis of the deposited data

Results flagged for a closer look

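In each of the 10 acinar genes, MWCNT D replicate 2 was far from the 4 other sarcomatoid tumors. The gap between it and the nearest of the 4, divided by the range over the 5 tumors, was 0.978 for Cpb1, 0.967 for Clps, 0.963 for Cela2a, 0.955 for Sycn, 0.947 for Cuzd1, 0.936 for Ctrc, 0.932 for Pnliprp2, 0.882 for Pnliprp1, 0.838 for Cela3b and 0.786 for Prss2. Dixon's critical value for 5 samples is 0.71. Chance alone marks about 1 in 20 groups, but the genes were chosen for high signals in this tumor, so the 10 of 10 marked here are a description. The measure was taken only for the sarcomatoid tumors, the largest labelled group, so amosite replicate 1 was not set against its own group in this way.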

How the results depend on the processing

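With MWCNT D replicate 2 and amosite replicate 1 left out together, 6 of the 10 genes were called for all tumors. In that fit 25.3% of all probe sets were called higher. By inducer, 6 were called for MWCNT B, 6 for MWCNT C, 5 for MWCNT D and 5 for amosite. By tumor type, 6 were called for the sarcomatoid, 6 for the biphasic and 7 for the epithelioid tumors. With that omission and a floor at 5, 2 genes were called for all tumors, beside 20% of all probe sets. With that omission and centring, 4 were called, beside 16.6%. The floor at 5, the pseudocount of 16 and the adjusted p of 0.001 each left 0 calls for all tumors, MWCNT D, amosite, sarcomatoid and epithelioid tumors. Quantile normalization left 0 for MWCNT D and 0 for amosite, centring 0 for MWCNT D, and the filter at a mean of 6 gave 2 for the epithelioid tumors. When each fit held only the groups compared, MWCNT B and MWCNT C had 6 calls each, and MWCNT D and amosite 0 each. Where no share of all probe sets stands beside a count here, the count is no result about the 10 genes.

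Leaving out 1 array at a time gave 0 to 1 calls for all tumors, 0 to 0 for MWCNT B, MWCNT C and biphasic tumors, 0 to 3 for MWCNT D, 0 to 3 for amosite, 0 to 1 for sarcomatoid and 0 to 5 for epithelioid tumors. Without MWCNT D replicate 2, MWCNT D had 0 calls, amosite 3 and epithelioid tumors 5. Without amosite replicate 1, amosite had 0, epithelioid tumors 0 and MWCNT D 3. The share over all probe sets is not given for the fits without 1 array, so their counts are no result about the 10 genes. The call of Cela2a was lost in 6 of 24 alternatives for all tumors, 16 of 24 for MWCNT D and 10 of 24 for amosite, with limma adjusted p between 1.107e-07 and 0.397 for all tumors, and leaving out control replicate 1 or control replicate 2 brought the calls for all tumors to 0.

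Only Pnliprp2 and Cuzd1 changed direction in any alternative. Over the fits that left out arrays, Pnliprp2 ranged from -0.19 (both tumors left out, also with the floor) to 1.53 for all tumors, from -0.13 (without MWCNT D replicate 2) to 3.88 for MWCNT D and from -0.26 (without amosite replicate 1) to 4.34 for amosite. Cuzd1 ranged from -0.090 (without amosite replicate 1) to 5.23 for amosite. With centring as well, Pnliprp2 was at -0.62 and Cuzd1 at -0.35 for all tumors. The cause was not tested. The median separation was 8.01 with centring and 7.79 with the pseudocount of 16, and quantile normalization set the share of signal at 1.38% in amosite replicate 1 and 1.12% in MWCNT D replicate 2. Each gene has 1 probe set, so no other probe set could be tried.

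Replicate numbers are shared between inducer groups, and with the number as a replicate block the calls were 0 for MWCNT B, 0 for MWCNT C, 1 for MWCNT D and 1 for amosite, where the called gene was Cela3b in place of Cela2a (limma adjusted p = 0.036 for MWCNT D and 0.045 for amosite). The deviations of same-numbered arrays from their group means correlated at a median of 0.015 over 26 pairs, and 6 pairs exceeded 0.1, so the numbers were not taken as pairing the arrays.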
